A study of Homo sapiens with 10 samples.

Results

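The glutathione peroxidases GPX1, GPX2, GPX3, GPX4, GPX7 and GPX8 and the cystatins CST1, CST3 and CSTB were followed through the hepatic differentiation of H1 cells, an established human embryonic stem cell (hESC) line. They are 9 of the 12125 genes of the expression table, 6 glutathione peroxidases and 3 cystatins, and were found by their symbols among 10 names; CST4 was not analysed here. CST1 and GPX2 were chosen by their loadings on the second principal component (PC2) of these 10 libraries, the 2 highest positive ones, so their course over the days is what selected them and is given as a description; the others were added by gene family.

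RNA was sequenced in bulk, with 1 library per day, daily from day 0 to day 3, at 2-day intervals from day 3 to day 13, and on day 21. Day 0 held undifferentiated cells grown as a monolayer on Matrigel in mTeSR1. By the labels, the cells were in 100 ng/ml Activin A on days 1, 2 and 3, in 30 ng/ml FGF4 with 20 ng/ml BMP2 on days 5 and 7, in 20 ng/ml HGF with 20 ng/ml KGF on days 9 and 11, and in 20 ng/ml Oncostatin M (OSM) on days 13 and 21, all in serum-free medium; the step lengths in the protocol make day 13 the last day of HGF and KGF instead. Each group is therefore 1 library of 1 cell line, and without replicates no p-value is given for any pair of days.

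Glutathione peroxidases reduce hydrogen peroxide and lipid peroxides with electrons from glutathione. Most human members carry selenocysteine at the active site, an amino acid that is read from a UGA codon which elsewhere ends translation, and the others carry cysteine. Cystatins are tight inhibitors of the cysteine cathepsins, the proteases of the lysosome; type 2 cystatins such as CST1 and CST3 are secreted, whereas CSTB stays inside the cell. The liver is rich in glutathione and makes the selenium carrier of plasma, selenoprotein P.

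The codon at the active site divides the glutathione peroxidases, and it is shown here because the members with the selenocysteine codon and those with the cysteine codon are described separately below. The sequences are from the coding strand of GENCODE release 29 transcripts on GRCh38, 5′ to 3′, with the codon in capitals. It is codon 49 of GPX1, 40 of GPX2, 73 of both GPX3 and GPX4, 57 of GPX7 and 79 of GPX8, and for GPX2 it lies in a coding exon at chr14:64942607-64942609 on the minus strand.
GPX1: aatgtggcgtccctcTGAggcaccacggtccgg
GPX2: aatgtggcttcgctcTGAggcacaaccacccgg
GPX3: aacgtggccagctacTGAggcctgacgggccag
GPX4: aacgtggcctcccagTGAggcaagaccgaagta
GPX7: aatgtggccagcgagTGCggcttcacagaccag
GPX8: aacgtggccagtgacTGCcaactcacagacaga

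GPX1, GPX2, GPX3 and GPX4 hold TGA at this place and GPX7 and GPX8 hold TGC. The coding sequences of GPX1 and GPX2 were the most alike of the glutathione peroxidases, with 73.4% of 560 aligned bases identical. No stretch of 50 bases was shared between any pair of the 6 transcripts.

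For CST1, the stretch shown is the conserved loop that enters the active site of the protease, with its 5 codons in capitals. CST2, a near copy of CST1 in the same cluster on chromosome 20, is set beside it because reads can be shared between them.
CST1: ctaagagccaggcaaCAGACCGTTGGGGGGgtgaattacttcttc
CST2: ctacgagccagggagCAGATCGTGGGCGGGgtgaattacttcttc

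The coding sequences of CST1 and CST2 were identical at 91.3% of 423 aligned bases, against 72.1% for CST1 and CST3. Of the 711 stretches of 50 bases in the CST1 transcript, 38 (5.34%) also occur in CST2, so the values of these genes are uncertain to the extent that the counting divided shared reads between them. CST3 shared no such stretch with CST1 or CST2.

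The deposited values are whole numbers that were normalized for GC content and are scores, not read counts. They summed to between 2330948 and 2362740 per library, with a median of 81 or 82 and the same maximum, 18734, in every library, so depth cannot be read from them. From 2020 upwards, the values of the libraries lie in 11 narrow shared levels. Days were compared on the scale of log2(value + 1), on which the change of a low gene appears smaller than it is. As a yardstick for noise, the standard deviation of the log2 differences between days 9 and 11, which share a medium, was taken over the 500 genes of the nearest level and is called the spread; it also holds any true change between these days. A gene counted as past the fold where this difference reached 2, which is 4-fold, and the larger of its values reached 50. Shares of all genes past the fold are of those whose larger value reached 50, such as 9698 genes for days 0 and 21. Counts for lists are of the genes found, unless a number tested is given. The labelled stages were checked by markers. The summed value of 7 pluripotency genes went from 15995 on day 0 to 175 on day 21. That of 10 definitive endoderm genes was 30 on day 0, 22927 on day 3 and 319 on day 21, with CER1 alone at 18734 on day 3. Of these 10, 9 passed the fold upwards between days 0 and 3, beside 6.1% of all genes in either direction. FOXA1 did not, at 4 on day 3, and was highest on day 11 (157). FOXA2 was highest on day 7 (343). The sum of 12 hepatocyte genes went from 67 on day 0 to 97290 on day 21, when AFP, TTR, APOB and SERPINA1 were each at the maximum of 18734.

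CST1, the salivary cystatin SN, varied most of the set, and 99.5% of all genes varied less over the libraries by the standard deviation of their log2 values. In the order of the days its values were 4, 0, 5, 37, 6493, 1214, 52, 12, 6 and 24. The day 5 library, the first in FGF4 and BMP2, stood far above all others, and day 7 stood above all that remained. The value of 6493 belongs to one of the shared top levels, which runs to 6502 and held 10 genes on day 5, with 10 genes above it. From day 3 to day 5 the gene rose by 7.42 on the log2 scale (spread 0.28). It then fell by 2.42 from day 5 to day 7, by 4.52 from day 7 to day 9 and by 2.03 from day 9 to day 11, steps in which 1.34%, 0.245% and 0.107% of all genes passed the fold downwards. This course selected the gene, so the shares are given as a description only. In the order of its levels, days 5, 7, 9, 3 and 21 each differed from the next by more than the spread. That of days 9 and 3 was only 0.48 (spread 0.37). Days 11, 13, 2 and 0 did not differ beyond it from one neighbour to the next. Day 0, at 4, lay above day 1, listed at 0, by more than the spread, though both values are low.

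CST2 also had its highest value on day 5. It was listed at 0 on days 0, 1, 2 and 3, at 242 on day 5, at 40 on day 7, at 1 on day 9 and at 0 from day 11 on. These values were 3.73% of those of CST1 on day 5 and 3.29% on day 7, from transcripts of nearly equal length, with 711 and 699 stretches of 50 bases. Whether reads of CST1 account for the CST2 values was not tested.

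GPX2, known as the glutathione peroxidase of the gut lining, was likewise highest on day 5. Its values over the 10 libraries were 0, 0, 4, 8, 92, 90, 30, 10, 0 and 0. Days 5 and 7, both in FGF4 and BMP2, were the highest and did not differ from each other beyond the spread. The step from day 3 to day 5 was a log2 difference of 3.37 (spread 0.47), and those from day 7 to day 9 and from day 9 to day 11 were -1.55 and -1.49, each under the fold. It was listed at 0 on days 0, 1, 13 and 21, so no fold is given against those days. Of all genes, 97.3% varied less over the libraries, a share given as a description only, since this course selected the gene. It was not matched for level, and the spread at the mean level of GPX2 was 1.39.

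**Figure D1:**
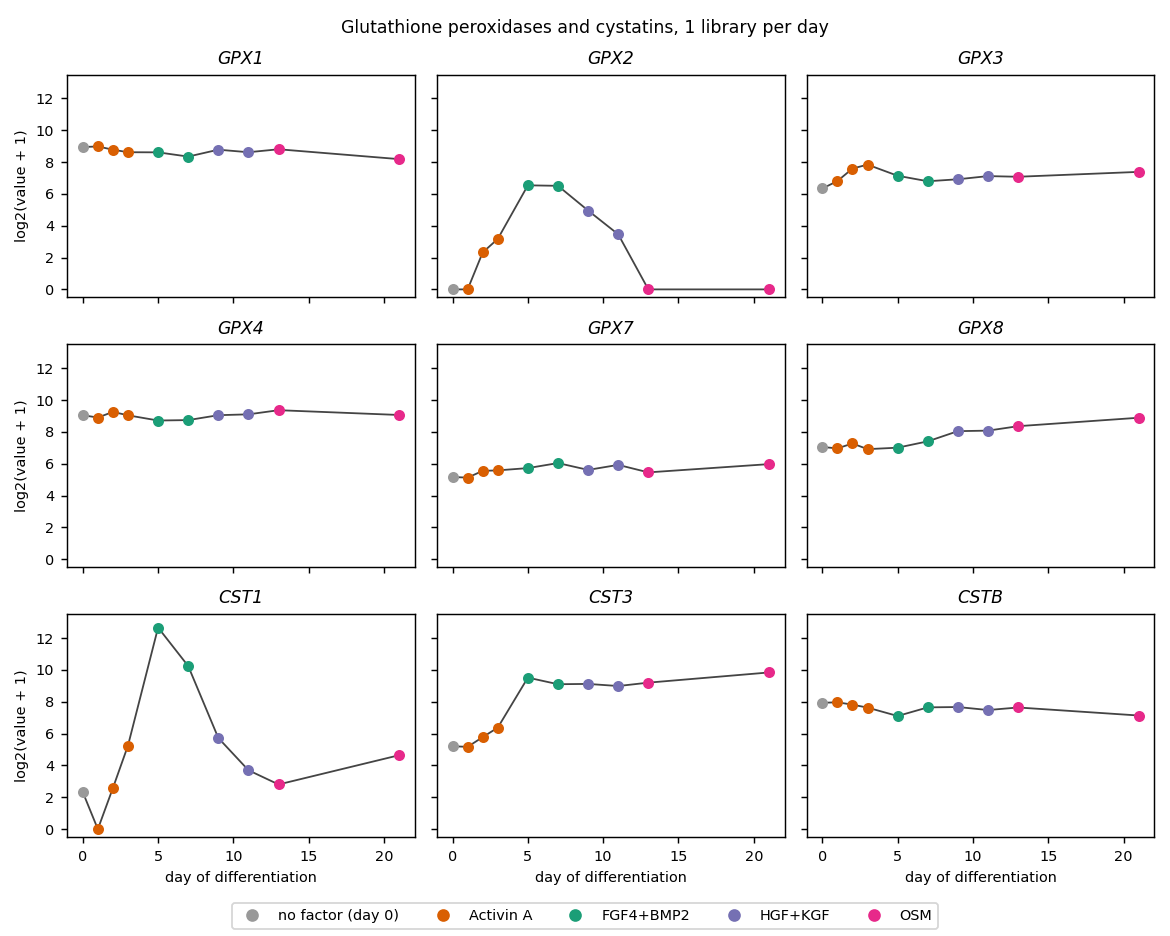
Values of the 9 members by day of differentiation, as log2(value + 1) on a common vertical axis, with 1 point per library coloured by the treatment in the labels. CST1 reaches 6493 on day 5 and GPX2 reaches 92, both return to low values by day 13, CST3 stays at 508 or more from day 5 on, and GPX1, GPX4, GPX7 and CSTB form nearly flat lines.

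PC2 held 13.2% of the variance of gene-centred log2 values and its scores ran from -49.1 on day 0 to a peak of 66.4 on day 5 and down to -58.6 on day 21. CST1 had a loading of 0.0750 and GPX2 of 0.0616, ranks 1 and 2 of 12125 genes. The next gene, just outside, was SOX17, a transcription factor of definitive endoderm, at 0.0593. CST2 ranked 8 with 0.0538 and CST3 ranked 576 with 0.0151. The other members had loadings between -0.00653 (GPX8) and 0.00322 (GPX7).

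CST3, cystatin C, a secreted inhibitor that most cell types release, rose and stayed high. Its values were 36, 35, 54, 82, 733, 550, 557, 508, 589 and 918. The 6 libraries from day 5 on lay between 508 and 918 and the 4 earlier ones between 35 and 82. The share of all genes whose values separate between the same libraries was not computed. The rise began under Activin A, with a log2 difference of 1.17 (spread 0.45) between days 0 and 3, which did not pass the fold, and the step from day 3 to day 5 was 3.14 (spread 0.25). Days 13, 9, 7 and 11, in this order of level, did not differ beyond the spread from one neighbour to the next, and day 21 was above day 13 by 0.64 (spread 0.28). Between day 0 and day 21 the difference was 4.63 (spread 0.28), and 92.2% of all genes varied less over the 10 libraries.

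CSTB, the intracellular cystatin B, was past the fold in no pair of days. It was 244, 250, 225, 198, 137, 200, 203, 178, 199 and 140 over the 10 libraries. The lowest values were those of days 5 and 21, which differed from each other by less than the spread. No step between successive libraries exceeded 2 times the spread. Day 21 lay below day 0 by a log2 difference of -0.80 (spread 0.28), and the highest value was 1.82 times the lowest.

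Among the selenocysteine members, GPX1 and GPX4 varied less than the others. GPX1, the widespread enzyme of the cytosol and mitochondria, was 492, 504, 438, 392, 390, 324, 438, 392, 446 and 290. Its lowest value was that of day 21, which differed from day 13 by -0.62 on the log2 scale (spread 0.25), the single step of its 9 that exceeded 2 times the spread. GPX4, which reduces lipid peroxides inside membranes and guards cells against ferroptosis, was 530, 478, 612, 527, 420, 428, 530, 550, 659 and 535. None of its 9 steps exceeded 2 times the spread, days 0 and 21 differed by 0.01, and only 4.36% of all genes varied less over the libraries.

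GPX3, the secreted peroxidase of plasma, peaked in definitive endoderm. Its values were 80, 111, 192, 228, 140, 110, 120, 138, 134 and 166. Day 3 was highest and day 2 next, and they did not differ beyond the spread. The difference between days 0 and 3 was 1.50 (spread 0.34), short of the 4-fold limit, and that from day 3 to day 5 was -0.70 (spread 0.29). In the order of its levels, only day 7 and day 0, the lowest, differed as neighbours by more than the spread.

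The cysteine members lie in the endoplasmic reticulum, where GPX7 and GPX8 are known to act during oxidative protein folding. GPX8 had its highest values in the later libraries. In the order of the days it was 132, 124, 154, 120, 128, 169, 264, 270, 328 and 474. The 6 libraries up to day 7 lay at 169 or less and the 4 from day 9 on at 264 or more, a division for which the share of all genes was not computed. The step from day 7 to day 9 was 0.64 (spread 0.27) and that from day 13 to day 21 was 0.53 (spread 0.25). Day 21 exceeded day 0 by 1.84 (spread 0.26), just under the 4-fold limit, and by 2.02, just past it, when each library was scaled by the median of ratios. GPX7 stayed between 34 on day 1 and 65 on day 7, at 35 on day 0 and 62 on day 21, and none of its 9 steps exceeded 2 times the spread.

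The summed values of stromal and red blood cell markers were also higher from day 9 on, and that of macrophage markers on days 13 and 21. CST3 and GPX8 had their highest values on day 21. All 12 fibroblast and stromal markers were found, and their summed value was between 2826 and 3727 up to day 5, 6532 on day 7, 20972 on day 9 and 43512 on day 21. Of the 12, 10 had their highest value on day 9 or later, whereas THY1 was highest on day 0 (2164, against 12 on day 21) and TAGLN on day 1 (1434, against 206 on day 21). DCN, LUM and COL3A1 were each listed at 0 in at least 1 library up to day 3. Of 15 macrophage markers, 3 were found, and their sum was between 1 and 83 up to day 13 and 416 on day 21. It was 42 on day 0, above the 36 of day 9 and the 32 of day 11. CD68 was listed at 0 up to day 3, whereas PTPRC was 39 on day 0, 0 on day 13 and 65 on day 21. Of 10 red blood cell markers, 5 were found, and their sum was between 39 and 64 up to day 7, 3803 on day 13 and 1901 on day 21. Their part in the values of CST3 and GPX8 was not tested, and in bulk RNA fewer cells of a type and less RNA per cell cannot be told apart. From day 3 to day 5, the step in which CST3 passed the fold, COL3A1 went from 21 to 111, LUM from 0 to 43 and COL1A1 from 192 to 306, while THY1 went from 147 to 20 and TAGLN from 1324 to 545, and the macrophage sum went from 5 to 1.

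Between day 0 and day 3, none of the 6 members with a large enough value passed the fold, beside 6.1% of all genes tested. From day 3 to day 5, GPX2, CST1 and CST3 passed it upwards and none of the 9 passed it downwards, beside 5.09% of all genes in either direction and 2.85% upwards. GPX2 and CST1 were chosen for a component that peaks on day 5, so their part in this count was fixed in large part by the choice. The median log2 difference was 0.04 for the glutathione peroxidases and 3.14 for the cystatins, against 0 over all genes, and the cystatin median is that of 3 genes, of which CST1 was chosen for its course.

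Between days 3 and 7 the same 3 members passed the fold upwards, beside 10% of all genes and 5.63% upwards. Between days 7 and 13, GPX2 and CST1 passed it downwards, beside 5.54% and 2.46% downwards. Both were chosen for a component that falls after day 5, so the counts that include them are descriptions. From day 13 to day 21, none of the 7 members tested passed, beside 3.89%, and over the whole course from day 0 to day 21 only CST3 of 7 did so, upwards, beside 23.5% and 11.9% upwards. GPX2 and CST1 were not tested in this last pair, since both of their values were under 50 (CST1 4 and 24, GPX2 listed at 0 on both days).

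**Figure D2:**
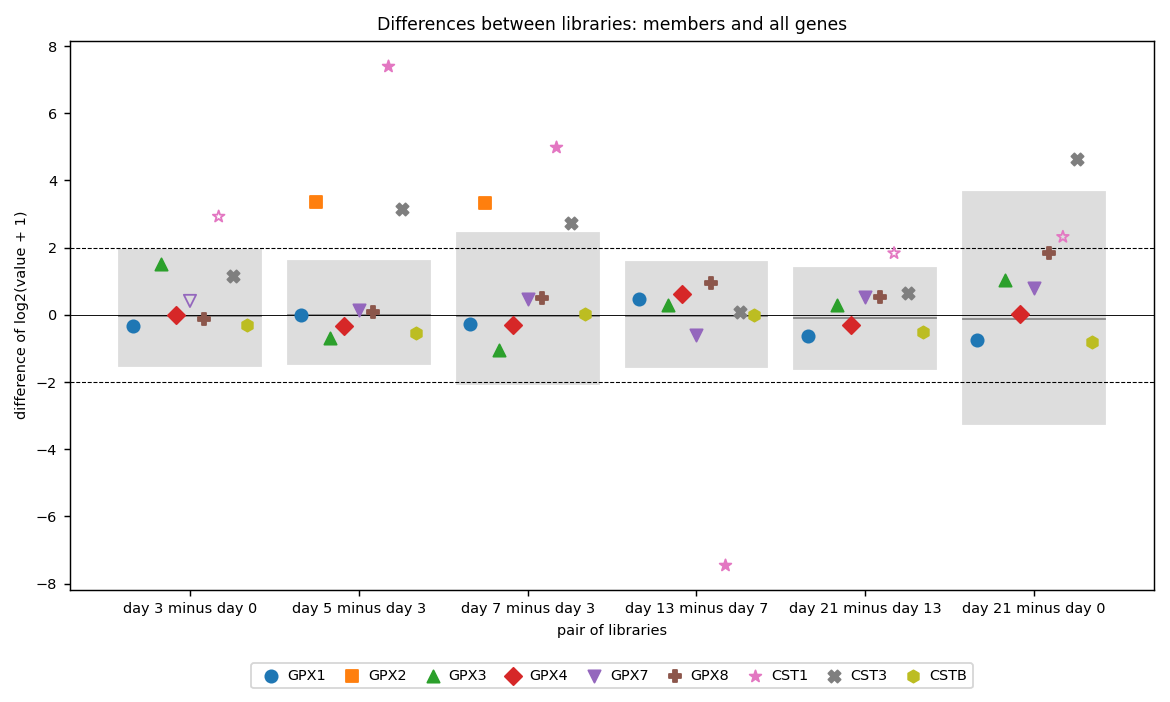
Differences of log2(value + 1) between 6 pairs of libraries, with 1 symbol per member; grey boxes span the 5th to the 95th percentile of all 12125 genes, grey lines mark their median and dashed lines the 4-fold limit. Open symbols have both values under 50 and pairs with a value listed at 0 are not drawn, which leaves GPX2 in the pairs of day 3 with days 5 and 7. CST1 stands at 7.42 and CST3 at 3.14 for day 5 minus day 3, above the box, whereas GPX1, GPX3, GPX4, GPX7, GPX8 and CSTB lie inside the boxes in each pair.

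The proteases that cystatins inhibit were measured in the same libraries. Of 12 listed cysteine cathepsins and legumain, 9 were found. From day 3 to day 5, as CST1 and CST3 rose, CTSH (36 to 260) and CTSL1 (125 to 536) passed the fold upwards, beside 2.85% of all genes. None passed it downwards, though CTSC (780 to 201) was just under the limit at -1.95, and 5.09% of all genes passed in either direction. The median was 0.76 over the 9 genes against 0 over all genes. CTSH and CTSL1 encode cathepsins H and L, lysosomal proteases. CTSL2, a close relative of cathepsin L, was 568 on day 3 and 1642 on day 5 and had its highest value on the same day as CST1; this step was 1.53, under the fold. It then passed the fold downwards between days 7 and 13, from 686 to 146, beside 2.46% of all genes downwards.

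Over the whole course, CTSB, CTSH, CTSL1, CTSZ and CTSK were past the fold upwards on day 21 and CTSC downwards, 6 of the 9 beside 23.5% of all genes in either direction and 11.9% upwards, with a median of 2.05 against -0.12 for all genes. CTSB, cathepsin B, rose in every library after day 0, through 116, 170, 232, 393, 1216, 1492, 2026 and 2434 to 3864, from 109. CTSC, the dipeptidyl peptidase that activates serine proteases of immune cells, went from 1088 on day 0 to 118 on day 21, with its largest step between days 3 (780) and 5 (201). Legumain (LGMN), an asparaginyl protease that some cystatins also inhibit, stayed between 188 and 280. The high values of CTSB on day 21 stood beside the macrophage and stromal sums given above, whose part was not tested. CTSZ, CTSK and LGMN were named after their values were seen.

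**Figure D3:**
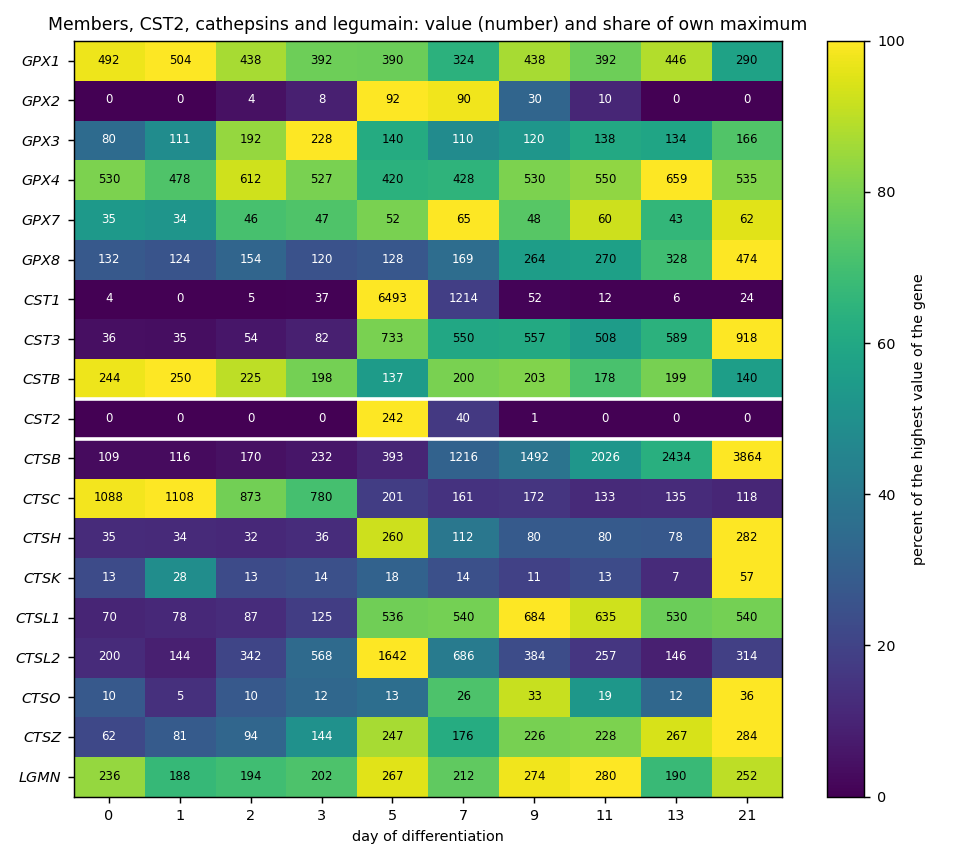
Value of each member, CST2, the 8 cathepsins found and legumain in each library (printed number), with the colour giving the percent of the highest value of that gene. CST1, CST2 and CTSL2 have their brightest cell on day 5, CTSB brightens up to 3864 on day 21, and CTSC is bright on days 0 and 1 and dark from day 5 on.

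Other members of the cystatin superfamily are plasma proteins of the liver. Of 16 further genes of both families, 3 were found. AHSG, fetuin-A, which binds calcium phosphate in blood, was 2 on day 0, 20 on day 5, 518 on day 13 and 6495 on day 21. KNG1, the kininogen from which bradykinin is cut, was 1 on day 0, 46 on day 13 and 220 on day 21. Both passed the fold upwards between days 13 and 21, beside 3.89% of all genes in either direction, a step in which neither CST3 nor CSTB passed it.

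Genes that make, recycle and break down glutathione, the cofactor of the peroxidases, were counted in the same way. Of 17 found of 18, none passed the fold from day 0 to day 3 or from day 3 to day 5, beside 6.1% and 5.09% of all genes. Between days 0 and 21, 4 of the 17 passed upwards and 3 downwards, beside 23.5% of all genes in either direction and 11.9% upwards, with a median of -0.03 against -0.12 for all genes. The 4 higher genes, ANPEP, GGT5, DPEP1 and GGT1, all encode enzymes at the cell surface that take glutathione or its products apart. ANPEP went from 8 to 1065, GGT5 from 1 to 185, DPEP1 from 34 to 274 and GGT1 from 50 to 318. The 3 lower genes were CHAC1 (110 to 8), which degrades glutathione in the cytosol, CBS (1734 to 247), which leads homocysteine towards cysteine, and GGCT (212 to 34), which acts on gamma-glutamyl products of glutathione. The enzymes of synthesis itself, named after their values were seen, were not past the fold: GCLC was 138 on day 0 and 162 on day 21, GCLM 69 and 98, and GSS 110 and 108.

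Selenoproteins need a machinery that delivers selenocysteine to the UGA codon. Of 10 genes of selenoprotein synthesis and selenium handling found of 11, 9 had a large enough value between days 0 and 21. None of these was past the fold upwards and 2 were past it downwards, beside 23.5% of all genes in either direction and 11.9% upwards. SEPHS1, a selenophosphate synthetase homologue, went from 2434 on day 0 through 660 on day 3 and 180 on day 7 to 74 on day 21. Days 7 and 13 (162) differed by less than the spread (-0.15, spread 0.30), and days 0 and 21 by -5.02 on the log2 scale. SCLY, which recovers selenium from selenocysteine, went from 139 to 28. SEPHS2, the enzyme that makes the selenium donor, was 178 on day 0 and 128 on day 21 and was named after its values were seen. The list also held SELENBP1, a selenium-binding protein, at 42 on day 0 and 106 on day 21, likewise named after its values were seen.

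Of 10 other selenoproteins found of 16, 3 were past the fold upwards between days 0 and 21 and none downwards, beside 23.5% of all genes in either direction and 11.9% upwards. SEPP1, selenoprotein P, was 16 on day 0 and 232 on day 1, reached 1434 on day 7 and 6493 on day 21, a value in the shared top levels. DIO1, the deiodinase of liver that activates thyroid hormone, was listed at 0 on days 0, 1 and 2 and reached 172 on day 21. The other 2 deiodinases were highest on day 5, the day of the CST1 peak. DIO2 went from 1 on day 3 to 209 on day 5, 45 on day 7 and 6 on day 9, and DIO3, which inactivates thyroid hormone, was 70 on day 3, 488 on day 5, 33 on day 13 and 345 on day 21. DIO3 and DIO1 are counted with SEPP1 among the 3.

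Enzymes that remove peroxide or superoxide by other routes were counted next. Of 15 peroxiredoxin and thioredoxin genes found of 17, TXNIP passed the fold downwards from day 0 (111) to day 3 (20), beside 6.1% of all genes in either direction. TXNIP (852 on day 21) and GLRX (38 to 195) were past it upwards between days 0 and 21. TXNIP encodes an inhibitor of thioredoxin. Of catalase and the 3 superoxide dismutases, CAT and SOD3 were past the fold upwards on day 21 against day 0. For both lists the share of all genes past it in this pair was 23.5% in either direction and 11.9% upwards. Catalase was at 32 or less up to day 5, then 111 on day 7 and 322 on day 13, and 156 on day 21. The median of these 4 genes between days 0 and 21 was 1.34, against 0.41 for the glutathione peroxidases and -0.12 for all genes.

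**Figure D4:**
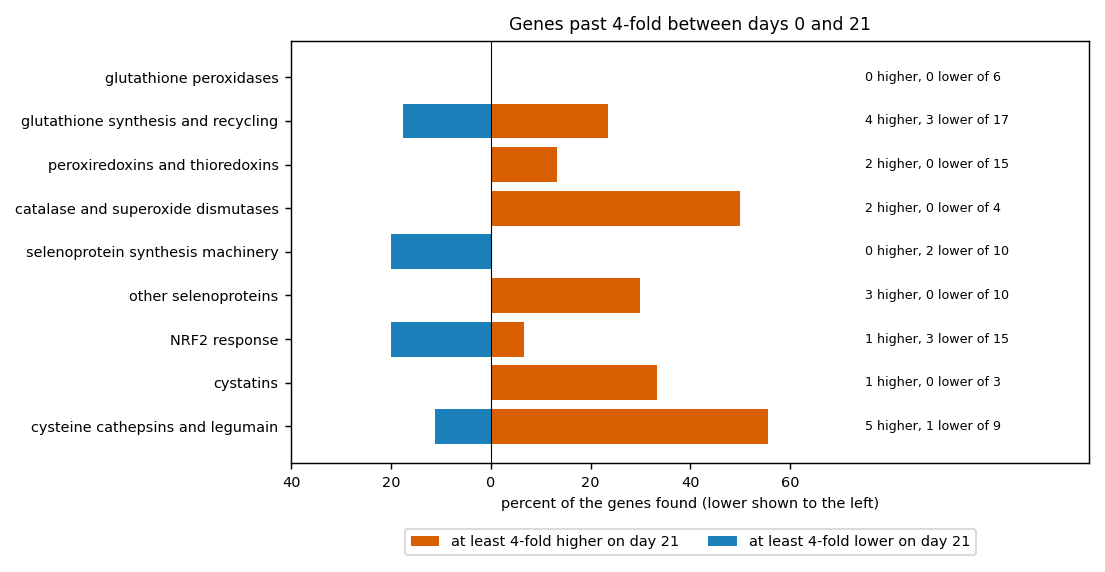
Genes past the 4-fold limit between days 0 and 21 in 9 lists, as a percent of the genes found, with higher genes to the right in orange and lower genes to the left in blue and the counts printed beside each bar. The glutathione peroxidases have 0 of 6 in either direction, of which GPX2 is listed at 0 on both days and was not tested. The cathepsins and legumain have 5 of 9 higher, and the NRF2 response has 3 of 15 lower. Of all genes whose larger value reached 50, 23.5% were past the limit in either direction and 11.9% upwards.

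GPX2 is known to be induced by NRF2, the transcription factor of the oxidative stress response, which binds the antioxidant response element. The 250 bases before its start are therefore shown, from RefSeq on GRCh38.p14 at chr14:64942746-64942995, minus strand, 5′ to 3′, with capitals at a match to the element (TGACNNNGC, here on the opposite strand, first base 122 before the start) and at a match to the SOX motif (ATTGTT, first base 91 before the start).
GPX2: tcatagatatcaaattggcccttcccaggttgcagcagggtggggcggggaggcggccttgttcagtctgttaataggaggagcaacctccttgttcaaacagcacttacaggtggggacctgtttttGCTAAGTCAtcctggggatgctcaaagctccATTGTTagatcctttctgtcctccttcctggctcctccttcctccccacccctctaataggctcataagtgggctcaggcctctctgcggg

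Both strands of 300 bases around the start were searched, and the motifs do not overlap here. Promoters were found for 7 of the 10 genes asked (the 9 members and CST2); those of CST1, CST2 and CSTB were not analysed here. Among the 7, the antioxidant response element and the SOX motif were matched in GPX2 alone, and the FOXA motif TGTTTNC in GPX7 alone. Of 35116 promoters of this length, 13.3% hold the antioxidant response element, 10.1% the SOX motif and 18.0% the FOXA motif, so a match is a description and not a binding site.

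Genes of the NRF2 response were compared with GPX2. Of 15 found of 18, HMOX1 alone passed the fold from day 3 to day 5, upwards, beside 2.85% of all genes upwards. HMOX1, the heme-degrading enzyme, was 60, 31, 32, 28, 336, 536, 204, 170, 125 and 156, with its highest values on days 5 and 7 as for GPX2. NQO1, another NRF2 target, was 252 on day 3, 149 on day 5 and 320 on day 7 and so did not share the step to day 5, and it fell to 78 on day 13 and 16 on day 21. ABCC2, a bile pump, went from 15 on day 5 to 178 on day 7. AKR1B10, under 50 in every library, was 0 on day 3, 14 on day 5, 47 on day 7, 33 on day 9 and 1 on day 13. NFE2L2, also in the list, was 150 on day 3, 139 on day 5 and 308 on day 7, its highest. AKR1B10 and NFE2L2 were named after their values were seen. Between days 0 and 21, ABCC2 was past the fold upwards and TKT, NQO1 and TALDO1 downwards, 4 of 15 beside 23.5% of all genes, and the median of the 15 was -0.76 against -0.12 for all genes.

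The genes closest in pattern were ranked by Pearson's r of log2(value + 1) over the 10 libraries, among genes reaching 50; the libraries follow each other in time, so high values are common and no p is given. Closest to GPX2 were LHFPL2 (0.964), ARSB (0.958), GLIPR2 (0.957), ZNF468 (0.952) and KEL (0.948). Closest to CST1 were ATP6V1H (0.972), ITLN2 (0.962), TSPAN14 (0.955), DDIT4L (0.954) and BCAP31 (0.954). KEL reached 324 and ITLN2 reached 286 on day 5, whereas ATP6V1H moved only between 74 and 134. The likeness is thus one of shape and not of size.

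For GPX3 the closest were S1PR3 (0.981), SMARCD3 (0.948), LRIG3 (0.937), INF2 (0.920) and FAM168B (0.920), each highest on day 3. For CST3 they were ELF4 (0.993), ANXA4 (0.993), ADCY6 (0.991), FAM127A (0.986) and BAMBI (0.983). BAMBI, a decoy receptor of the TGFβ family, was 118 on day 3 and 714 on day 5 and stayed at 442 or more. With Spearman's rho in place of r, 1 of the 5 genes was again among the first 5 for GPX2, 2 for CST1, 3 for GPX3 and 0 for CST3. Without the day 21 library, 2 of the 5 were again among the first 5 for GPX2, 1 for CST1, 3 for GPX3 and 3 for CST3, so most of the names given for GPX2 and CST1 changed under either alternative. Between the members themselves, r was 0.60 for CST1 and CST3 and 0.44 for CST3 and GPX2, over 10 libraries each. It was larger for CST3 with GPX7 (0.78) and GPX8 (0.69), and was -0.79 for CST3 and CSTB. The largest in size was -0.90, for GPX1 and GPX7. These further pairs were named after their values were seen. The r of CST1 and GPX2, 0.86, was fixed in large part by their selection on the same component of these libraries.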

How the data were processed

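H1 cells were differentiated to hepatocyte-like cells, and 1 bulk RNA-seq library was made on each of 10 days. The authors aligned reads to a transcriptome with Bowtie2 2.2.0, estimated expression with RSEM 1.2.17 and normalized for GC content with EDASeq. Each value the authors deposited, a whole number for each of 12125 genes, is treated as a score, not as a count. All libraries have nearly the same sorted values, and which processing step made them so was not tested. The values therefore do not show how deeply single libraries were sequenced, and no interval or count test is given. The methods name a mouse build for the human genes, the submitters' processing notes list mm10 and hg19, and the build of the gene intervals is not named in the table, so none of those intervals is printed.

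Columns were matched to days by name and sample title. The difference of log2(value + 1) was computed between days, with a pseudocount of 1, and a gene was past the fold where the difference reached 2 and the larger value reached 50. The spread used the 500 genes nearest in mean log2 level in days 9 and 11. Principal components were taken from gene-centred values without scaling. The step from day 3 to day 5 was added to the planned pairs of days. All members were named, as were up to 4 genes past the fold with the largest difference in each list and pair of days, and the 5 genes most alike in pattern; others are marked or were named as single examples after their values were seen. Members and gene lists were chosen with earlier results of these data known. Coding sequences from GENCODE release 29 were aligned in place of protein sequences. Some items are not reported here, and the gene lists were counted without them. Alternatives changed the pseudocount, scaling, fold and filter. Python 3.11.15, numpy 2.4.6, pandas 2.3.3 and matplotlib 3.10.9 were used, and the code was tested on simulated data.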

Additional observations from a re-analysis of the deposited data

How the results depend on the processing

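No paired analysis was possible because each day has 1 library, so no replicate of a day could be left out. The number of members past the fold kept its value, within 1.5 times, with pseudocounts of 0.1 and 5 in all 6 pairs of days. Between days 0 and 3 it was 2 instead of 0 with a log2 limit of 1, and 2 with no filter on low values. With a larger value of at least 200 it was 1 instead of 2 between days 7 and 13, since GPX2 did not reach that value. For the same reason it was 2 instead of 3 between days 3 and 5 and between days 3 and 7. Between days 0 and 21 it was 3 instead of 1 with a log2 limit of 1, 2 with no filter, and 2 with each library scaled by the median of ratios, which took GPX8 past the fold and moved the median of all genes from -0.12 to 0.06. No difference of a member that was past the fold changed direction. The PC2 ranks that selected CST1 and GPX2 depended on the settings. With each gene at unit variance CST1 ranked 457 and GPX2 13, with a pseudocount of 5 GPX2 ranked 19, and without the day 21 library it ranked 15 with a loading of 0.0544, whereas CST1 ranked 1 under the last 2 settings. Low values limit GPX2 most, because days listed at 0 give no fold. With 1 library per day, differences of the size of the spread cannot be told from differences between libraries.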

Other observations

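Glutathione S-transferases, which join glutathione to drugs and other foreign compounds, were counted in the same way as the glutathione peroxidases. Of 17 found of 20, 5 were past the 4-fold limit upwards between days 0 and 21 and 2 downwards, beside 23.5% of all genes in either direction and 11.9% upwards, with a median log2 difference of 0.52 against -0.12 for all genes. GSTA2, an alpha-class enzyme abundant in liver, was listed at 0 on days 0, 1 and 2, at 36 on day 5, 192 on day 7 and 527 on day 21. GSTA1 of the same class was at 47 or less up to day 13 and at 650 on day 21, and the pair are close copies between which reads may be divided. GSTM3 rose from 18 to 273. MGST1, a microsomal enzyme, was past the fold downwards, from 2972 on day 0 to 960 on day 3, 282 on day 5 and 440 on day 21. GSTT2 was at 50, 114 and 115 on days 1, 2 and 3, in Activin A, against 12 on day 0 and a listed 0 on day 5.

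Intestinal markers were looked at because GPX2 is known from the gut. Of 8 listed, 4 were found. CDX2, a transcription factor of the hindgut, was listed at 0 up to day 3, at 48 on day 5 and at 197 on day 13, when GPX2 was listed at 0. VIL1, a protein of the brush border, was 176 on day 5 and 374 on day 21, and LGR5, a stem cell marker of the crypt, was highest on day 3, at 198.

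PRDX6, a peroxiredoxin that reduces lipid peroxides, was 745 on day 3, 2970 on day 5 and 1640 on day 7, and its highest library was that of CST1; this gene was named after its values were seen.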
